A study of Oryzias latipes with 2 samples.

Results

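The cells described here are xanthophores of adult medaka skin in which bco2b and kiss1, with efemp2a and ngfrb, stood out above 3 other sets of genes. Of 1771 barcodes of run 1 that carried xanthophore genes, 460 were members, a share of 26.0% with an exact (Clopper-Pearson) 95% interval of 23.9 to 28.1%. They were selected on measured counts. A barcode of run 1 entered the pool with at least 500 UMIs (unique molecular identifiers, each standing for 1 captured transcript), 300 genes, 2 UMIs of scarb1 and 1 UMI of sox5, and with at most 1 UMI of KIRREL3. Each pooled barcode was then scored on 4 gene sets, as the mean z-score of log-transformed counts per 10000. Members were the barcodes whose highest score was that of bco2b, kiss1, efemp2a and ngfrb, called set A here. The other barcodes formed a group of 503 high in igfbp6b and tmem163a (with slc22a7a), a group of 459 high in spra and gamt (with rgs16 and dhrs11b.1), and a group of 349 high in nlgn3a and CSPG4 (with CPLX1 and rxfp2a).

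The study took skin and scales from wild-type male and female adults of HdrR, an inbred strain of southern medaka (Oryzias latipes), and its title concerns the light-scattering assemblies of leucophores, the white pigment cells. Tissue was dissociated with TrypLE, nuclei were marked with Draq5, and sorting by GFP and mCherry signals was meant to enrich pigment cells; the labels do not say what carried them. Both 10x Genomics 3′ libraries carry the same labels, and nothing says that they came from separate animals. Run 1 held 4702 barcodes and run 2 held 614, with 0 barcode sequences in common, but only 5 barcodes of run 2 entered the xanthophore pool and 1 of them scored highest on set A. Every level below therefore comes from 1 library, cells are not replicates, and no test was made. Intervals cover counting error only.

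Xanthophores are the yellow to orange pigment cells of fish. They colour themselves by 2 routes, taking up carotenoids from the diet, which they keep in lipid droplets, and making pteridines from GTP. Enzymes that cleave carotenoids, among them the BCO2 family, lower the carotenoid content of tissues. Kisspeptin, the product of kiss1, is best known as a peptide signal of the brain that acts on reproduction.

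The members carried the general genes of xanthophores. Levels are given as CPM, the UMIs of a gene per 1000000 UMIs of the group, in the order members, igfbp6b and tmem163a group, spra and gamt group, nlgn3a and CSPG4 group. The transcription factor gene pax7a, needed for xanthophores and leucophores in medaka, stood at 976, 1065, 934 and 939 CPM. The lipid droplet coat gene plin6 stood at 750, 826, 611 and 1008 CPM. The receptor gene csf1ra, which xanthophores need in zebrafish, stood at 706, 408, 389 and 639 CPM. All 3 were low in 1415 barcodes with keratinocyte genes, at 24.8, 3.44 and 14.9 CPM. That contrast does not separate xanthophores from other pigment cells. Of genes that define those, pnp4a of iridophores stood at 1.75 CPM in members, and gda and slc23a4 of leucophores at 0.437 and 46.4 CPM. The pool allowed at most 1 UMI of KIRREL3, which stood at 2720.5 CPM in 6 leucophore barcodes of run 1. The low leucophore values are thus tied to the rule. Of melanophore genes, dct and pmela stood at 0 CPM, but tyr stood at 70.4 CPM, and trpm1b and MLANA, given below, were higher. The melanophore list summed to 1938, 1723, 2013 and 1811 CPM, so members did not lack its transcripts. The iridophore list summed to 363, 693, 607 and 452 CPM, and to 747 CPM in keratinocyte barcodes. The leucophore list, which shares genes such as pax7a with the xanthophore list, summed to 1642, 1786, 1463 and 1758 CPM. The sugar transporter genes slc2a11b and slc2a15b were likewise close to the other groups, at 210 and 319 CPM in members. Of the xanthophore list, 9 genes outside the rule were measured; 0 were at least 2-fold higher in members and 2, gch2 and XDH, were at least 2-fold lower, where 0.446% of all 10975 genes tested passed 2-fold in each direction. The rule used this contrast, so nothing is read from such counts.

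The values that chose the members are a description and support nothing. The carotenoid-cleaving enzyme gene bco2b stood at 1032, 24.0, 398 and 428 CPM. The peptide gene kiss1 stood at 364, 26.3, 26.2 and 170 CPM. The elastic fibre gene efemp2a, a fibulin, stood at 243, 24.3, 79.6 and 68.0 CPM, and ngfrb, a paralogue of the p75 neurotrophin receptor gene, at 399, 82.1, 64.7 and 274 CPM. The lowest group differed by gene, and the next highest group was the one high in nlgn3a and CSPG4 for 3 of the 4 genes. The members held 43.2% of all bco2b UMIs of run 1 and 52.2% of all kiss1 UMIs, so many transcripts of these genes lay outside the group.

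The boundary of the group was soft. All 4 genes of set A were detected in 91 members, 3 in 176, 2 in 152, 1 in 36 and none in 5. Both bco2b and kiss1 were detected in 201 members (43.7%), so most members did not show the 2 together. The median lead of set A over the next set was 0.50 z-score units, 132 members led by under 0.25, and 32 members had no score above 0 in any set. The second-highest set was that of nlgn3a and CSPG4 in 242 members, that of spra and gamt in 162 and that of igfbp6b and tmem163a in 56. The 50 members nearest the boundary held 650 CPM of bco2b and 160 CPM of kiss1, and the 50 other barcodes nearest to it held 713 and 147 CPM.

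The 4 genes did not form 1 block across xanthophores. Over all 1771 barcodes of the pool, which share 1 library and sparse counts, Pearson's r of log-transformed counts was 0.45 between bco2b and efemp2a and 0.33 between kiss1 and ngfrb. It was 0.16 between bco2b and kiss1 and 0.06 between efemp2a and ngfrb. Apart from efemp2a, the symbols most like bco2b among 6274 genes were marcksl1a (r = 0.44), a gene of the MARCKS family of membrane-binding proteins, and PLPP3 (r = 0.38), a phospholipid phosphatase. The gene most like kiss1 was sult1st6 (r = 0.40), a cytosolic sulfotransferase. The least like bco2b was si:dkey-251i10.2 (r = -0.49), followed by uraha (r = -0.44).

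**Figure D1:**
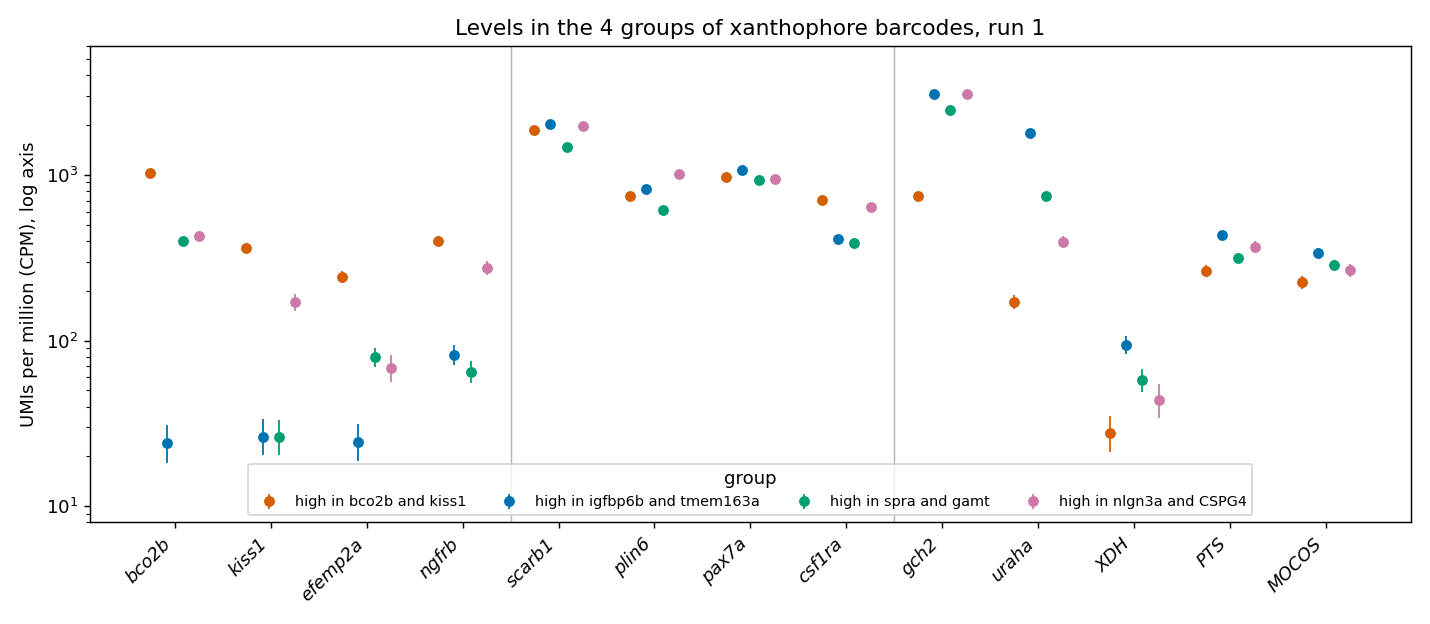
Levels in the 4 groups of run 1 on a log axis (CPM), as points with exact Poisson 95% intervals. The first 4 genes chose the members, the next 4 mark xanthophores and the last 5 belong to pteridine and purine metabolism; scarb1 was also used for the pool. The members sit at 743 CPM for gch2 and 171 CPM for uraha, below each of the other groups.

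The members held little gch2. The enzyme it encodes, GTP cyclohydrolase, takes the first step from GTP towards pteridines. The gene was used in no score, but its level is still tied to the rule. Over the pool its r was -0.31 with kiss1 and -0.22 with efemp2a, genes that chose the members. The gch2 values of members are thus a description. Its level was 743 CPM in members against 3070, 2454 and 3082 CPM in the other groups. The ratio of members to the other groups pooled was 0.26 (exact conditional 95% interval 0.25 to 0.28), a level 3.81-fold lower. The summed level of members was thus well under each of the other 3 groups, whose own summed levels lay close together. Nearest the boundary the contrast was smaller, at 962 CPM in the 50 members and 1527 CPM in the 50 other barcodes.

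Barcode by barcode the members were also lowest, but the other groups lay further apart. A gch2 UMI was found in 36.3% of members (interval 31.9 to 40.9%), against 81.7, 77.8 and 58.7% of the other groups, and in 7.07% of keratinocyte barcodes, where the gene should be low. Median depth was 4738 UMIs in members, 4692, 5697 and 4231 in the other groups, and 5962 in keratinocyte barcodes. After every barcode was thinned to 2000 UMIs, which left out 34, 75, 13 and 64 shallower barcodes, the shares were 25.6, 78.5, 68.4 and 56.8%, with 2.79% in keratinocyte barcodes. The member share remained under the others at equal depth and above the keratinocyte share. Keratinocyte barcodes were chosen with 0 UMIs of scarb1 and sox5, so their share is not an unselected background. The median barcode held 0 CPM of gch2 in members and 1731, 1209 and 348 CPM in the other groups. The gch2 UMIs of members were concentrated, and the top 10% of members held 83.5% of their gch2 UMIs. In the group high in nlgn3a and CSPG4 this share was 70.9%, and in the 2 remaining groups it was 43.7 and 43.9%.

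**Figure D2:**
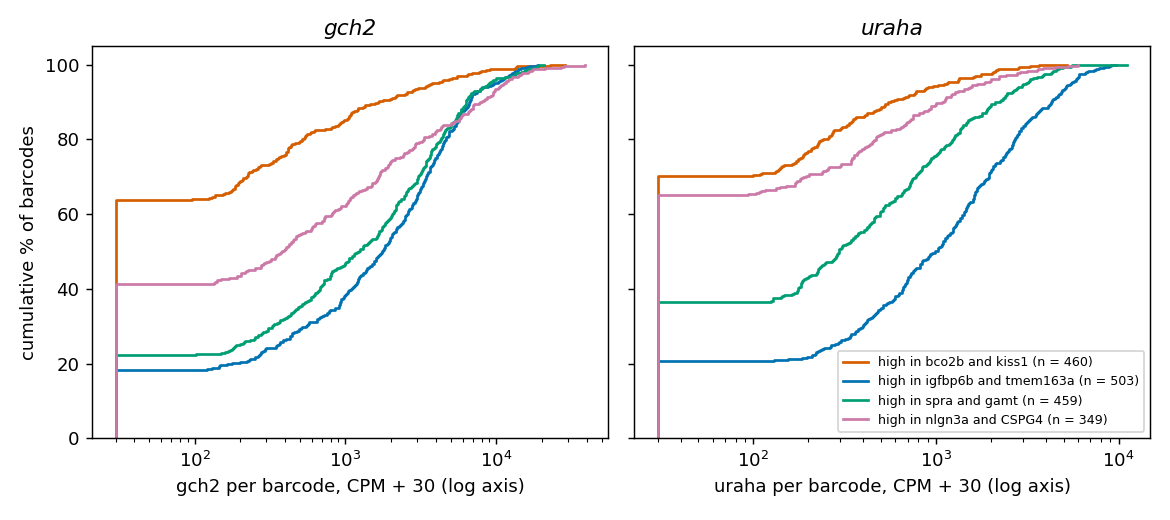
Cumulative share of barcodes (%) against the level of gch2 and of uraha per barcode, in CPM plus 30 on a log axis, for the 4 groups. The step at the left of each curve is the share of barcodes with no UMI, 63.7% of members for gch2 and 70.2% for uraha.

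Within the members, barcodes with gch2 were fewest where set A was most complete. With 1, 2, 3 and 4 genes of set A detected, 47.2, 38.8, 36.9 and 25.3% of members held a gch2 UMI, while median depth rose from 2660 to 5363 UMIs. Members cut into 4 equal parts of 115 by their score had near-equal depth, 4548, 5072, 4846 and 4509 UMIs from the lowest to the highest part. In these parts 43.5, 40.9, 35.7 and 25.2% of barcodes held gch2. The summed levels were 1270, 673, 820 and 229 CPM, but they leaned on single barcodes. One barcode held 335 of the 684 gch2 UMIs of the lowest part, one held 138 of the 465 of the third part and one held 79 of the 422 of the second. The 3 together held 32.5% of the 1698 gch2 UMIs of members. The parts were cut on the score that chose the members, so these values are a description. Over the same parts csf1ra stood at 509, 649, 760 and 907 CPM.

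**Figure D3:**
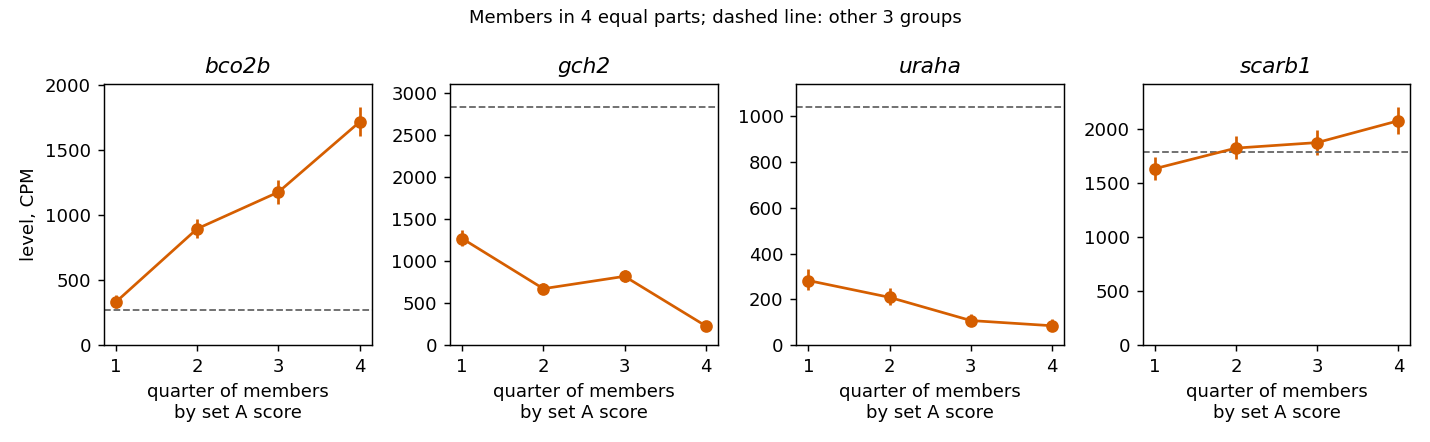
Levels (CPM, with exact Poisson 95% intervals) of bco2b, gch2, uraha and scarb1 in 4 equal parts of the members, ordered by set A score; bco2b belongs to the score. Dashed lines give the other 3 groups pooled. From the lowest to the highest part gch2 went from 1270 to 229 CPM, with 335 of the 684 UMIs of the lowest part in 1 barcode, and scarb1 from 1636 to 2080 CPM. The intervals cover counting error only, not the spread between barcodes.

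Among the genes of set A, kiss1 separated members by gch2 more than the others did. These genes chose the members, so such splits are a description. Between bco2b and kiss1, r was -0.24 within members and 0.16 over the pool. Of members with a kiss1 UMI, 28.0% (22.8 to 33.6%) held gch2, against 87 of 174 (42.3 to 57.7%) members without one. At 2000 UMIs per barcode the shares were 19.6% (14.2 to 26.0%) and 30.4% (24.6 to 36.7%), whose intervals overlap slightly. With or without a bco2b UMI the shares before thinning were 38.2 and 30.8%, and their intervals overlapped. With or without an efemp2a UMI they were 34.9 and 38.4%, and for ngfrb 35.0 and 39.5%, also with overlapping intervals. In the 1311 barcodes of the other groups, gch2 was found in 65.1% with and 77.5% without a bco2b UMI, and in 59.3% with and 77.0% without a kiss1 UMI. For efemp2a these shares were 74.9 and 74.1%, and for ngfrb 74.0 and 74.3%. At 2000 UMIs per barcode they were 55.8 and 70.8% for efemp2a and 65.0 and 70.2% for ngfrb. Pooled shares mix groups that differ in both genes. Within the spra and gamt group, at 2000 UMIs per barcode, gch2 was found in 58.7% with and 72.9% without bco2b. In the nlgn3a and CSPG4 group these shares were 47.6 and 60.7%. In the igfbp6b and tmem163a group gch2 was found in 5 of 12 barcodes with and 331 of 416 without bco2b. With and without kiss1 gch2 was found in 9 of 24 and 296 of 422 barcodes of the spra and gamt group. The shares in the nlgn3a and CSPG4 group were 53.5 and 57.9%, and their intervals overlapped. In the igfbp6b and tmem163a group gch2 was found in 7 of 15 barcodes with and 329 of 413 without kiss1.

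Leaving each gene of set A out in turn regrouped the same barcodes, with 84.6 to 85.9% of the members kept. The regrouped members held 920, 833, 866 and 804 CPM of gch2 without bco2b, kiss1, efemp2a and ngfrb in the set, against 2776, 2832, 2803 and 2836 CPM in the other barcodes. Since most members are shared, these values show how far the choice of each gene moved the level and are not further evidence for it.

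The other genes of the pteridine route showed smaller differences. XDH, whose product xanthine dehydrogenase oxidises purines and pterins, stood at 27.5, 94.2, 57.8 and 43.6 CPM, a ratio to the other groups pooled of 0.41 (interval 0.31 to 0.53). PTS, which encodes the next enzyme after GTP cyclohydrolase, stood at 262, 431, 314 and 368 CPM. MOCOS, whose product activates the molybdenum cofactor of xanthine dehydrogenase, stood at 225, 339, 286 and 266 CPM. Both were lowest in members, but within 2-fold of every group. The sepiapterin reductase gene spra was used for another group, so its 345, 338, 1183 and 363 CPM are a description; the members lay close to the groups that it did not choose. The tetrahydrobiopterin recycling genes qdpra and pcbd1 stood at 98.4 and 159 CPM in members and at 69.7 to 128 and 136 to 189 CPM in the other groups. Of 9 pteridine genes measured outside the rule, 0 were at least 2-fold higher in members and 2 were at least 2-fold lower, with a median log2 ratio of -0.40 beside 0.06 for all genes, of which 0.446% passed in each direction. The call of XDH was narrow: its log2 ratio was -1.05, but -0.89 with efemp2a and -0.99 with ngfrb left out of set A. Among the 50 barcodes on either side of the boundary XDH stood at 47.6 CPM in members and 23.9 CPM in the others. Against the spra and gamt group alone its log2 ratio was -0.85, and against the nlgn3a and CSPG4 group -0.51.

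On the lists of purine salvage, breakdown and synthesis, 1 gene passed 2-fold. XDH, whose product also acts on purines, was counted with the pteridine genes. The urate breakdown gene uraha, which encodes hydroxyisourate hydrolase, stood at 171, 1786, 749 and 395 CPM, and the members were lowest, 6.07-fold under the other groups pooled (interval 5.48 to 6.74). A uraha UMI was found in 29.8% of members and in 79.3, 63.4 and 34.96% of the other groups, with 3.04% in keratinocyte barcodes. Thinned to 2000 UMIs, the shares were 18.1, 75.9, 48.2 and 28.4%, so members and the nlgn3a and CSPG4 group, with intervals of 14.5 to 22.1% and 23.3 to 34.0%, were the 2 low groups. Of 11 purine salvage and breakdown genes, uraha was the only 1 past 2-fold, where 0.446% of all genes passed in each direction. In purine synthesis, paics stood at 223, 499, 464 and 271 CPM and atic at 21.4, 46.7, 33.8 and 40.7 CPM. Neither passed 2-fold against the pooled groups, and 0 of the 13 synthesis genes did in either direction.

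The receptor gene scarb1, which carotenoid uptake needs, was used for the pool and stood at 1856, 2021, 1463 and 1984 CPM. The carotenoid-cleaving gene bco1 was near the limit of detection, at 6.56, 3.53, 5.45 and 4.65 CPM. The retinoid receptor gene rxraa stood at 43.3, 126, 49.1 and 81.3 CPM. Of 13 carotenoid and retinoid genes outside the rule, 0 passed 2-fold in either direction, as 0.446% of all genes did in each, and their median log2 ratio was 0.10. The fatty acid binding gene fabp3 stood at 3275, 2297, 3097 and 2320 CPM and the lipid efflux gene abca1a at 404, 260, 219 and 421 CPM. The triglyceride synthesis gene dgat2 stood at 381, 607, 350 and 444 CPM. Of 19 lipid storage genes, 1 was at least 2-fold higher, lpl, and 25 of its 43 UMIs in members lay in 3 barcodes described below.

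**Figure D4:**
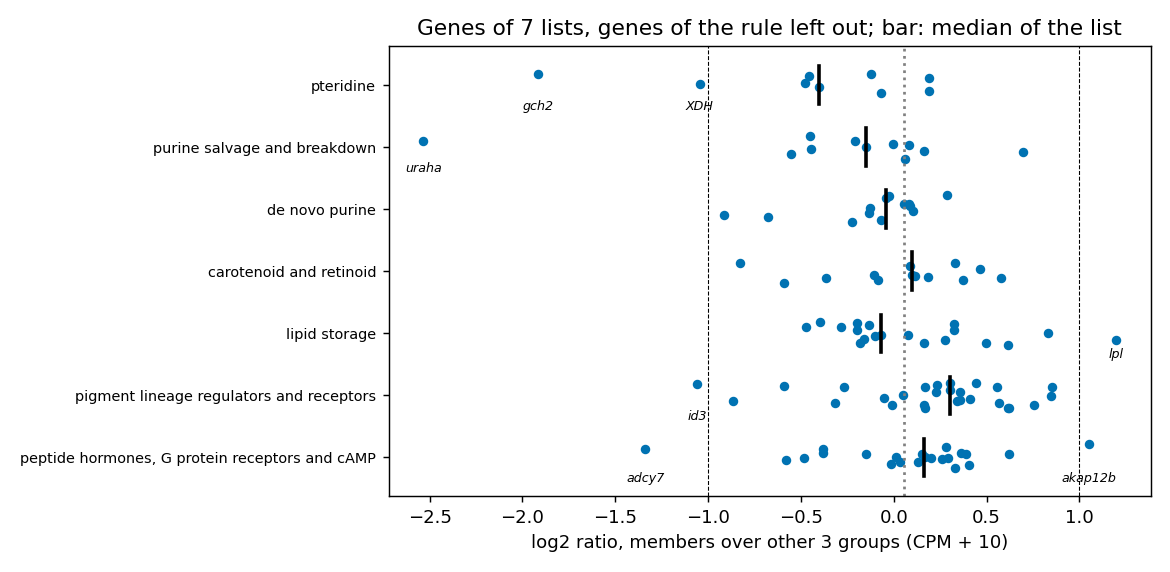
Log2 ratio of members to the other 3 groups pooled, with 10 CPM added, for the measured genes of 7 lists, rule genes left out; each point is a gene, bars are list medians and the dotted line is the median of all genes (0.06). Dashed lines mark 2-fold. The pteridine median is -0.40, and gch2, XDH, uraha, id3 and adcy7 lie past 2-fold on the low side.

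Across all features, 10975 genes had at least 20 UMIs in the pool. Of these, 49 were at least 2-fold higher in members than in the other groups pooled and 49 at least 2-fold lower, with 10 CPM added to each level, which is 0.446% of the genes in each direction. Rule genes made up 4 of the former and 5 of the latter.

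On the low side, 15 genes outside the rule were named for the lowest ratios. All of these except gch2 had their highest level in the group high in igfbp6b and tmem163a. The uncharacterised gene si:dkey-251i10.2 stood at 116, 2788, 1094 and 533 CPM, 13.5-fold lower in members than in the pooled groups. The tetraspanin gene tspan36 stood at 10.1, 174, 73.4 and 22.7 CPM, and alpl, an alkaline phosphatase gene, at 2.62, 89.9, 32.7 and 11.6 CPM. The transcription factor gene gata2a stood at 11.4, 110, 68.3 and 28.5 CPM. In all 4 the order of the groups was the same, with the nlgn3a and CSPG4 group closest to the members. The adhesion gene NCAM2 stood at 33.2, 184, 77.0 and 77.3 CPM. The melanopsin gene opn4xb, a light receptor, stood at 26.2, 139, 67.6 and 68.0 CPM. The adenylate cyclase gene adcy7 stood at 18.4, 94.2, 44.0 and 41.8 CPM. The rest of the 15 lowest were orc5, ppt2b, ANKRD33, exoc3l4, lhfpl3 and arhgdig, with log2 ratios between -1.51 and -1.26.

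On the high side, the LIM-domain gene FHL1 had the highest ratio among genes with a symbol found in at least 5% of members, at 133, 6.28, 26.5 and 15.7 CPM (ratio 8.02, interval 6.45 to 10.0). It was found in 27.6% of members, in 1.99, 10.5 and 6.59% of the other groups, and in 6.22% of keratinocyte barcodes. At 2000 UMIs per barcode the shares were 16.9, 1.40, 5.61 and 3.86%, with 4.18% in keratinocyte barcodes. The interval of members alone lay above the keratinocyte share (13.5 to 20.8%), and that of the igfbp6b and tmem163a group lay under it (0.52 to 3.03%). In the 6 leucophore barcodes of run 1 FHL1 stood at 113 CPM, so it was not particular to members among pigment cells. Its 303 UMIs lay in 127 members. The endothelial gene aqp1a.1 had a higher log2 ratio (2.49 against 2.43) but was found in 0.870% of members. PLPP3 (the feature ENSORLG00000023318, since 2 features carry the symbol) stood at 253, 42.0, 119 and 142 CPM, but at 283 CPM in keratinocyte barcodes. The sulfotransferase gene sult1st6 stood at 212, 35.0, 58.9 and 200 CPM, so members and the nlgn3a and CSPG4 group were alike and the other groups low. The same held for tmtops2b, a non-visual opsin gene, at 38.5, 7.46, 4.36 and 32.5 CPM. The calcium channel subunit gene cacna2d2a stood at 119, 36.5, 47.2 and 76.1 CPM. The matrix gene SMOC2 stood at 51.2, 5.50, 9.08 and 36.0 CPM, and lfng, whose product modifies Notch receptors, at 38.5, 5.10, 12.4 and 15.7 CPM. The rest of the 15 highest were TPM1, aldoab, spon1a, flvcr1, IRF1, SYT2, olfml2a and efnb3b, with log2 ratios between 1.03 and 1.61. Of these, IRF1 and TPM1 were higher in keratinocyte barcodes, at 60.1 and 39.1 CPM, than in members, at 40.2 and 33.7 CPM. The others of these were lower in keratinocyte barcodes than in members. Many of the 15 were near 2-fold: 8 fell under it with kiss1 left out of set A, among them sult1st6 (0.73), tmtops2b (0.64) and SMOC2 (0.92), and 6 with bco2b left out. FHL1 remained above 2-fold in each case.

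**Figure D5:**
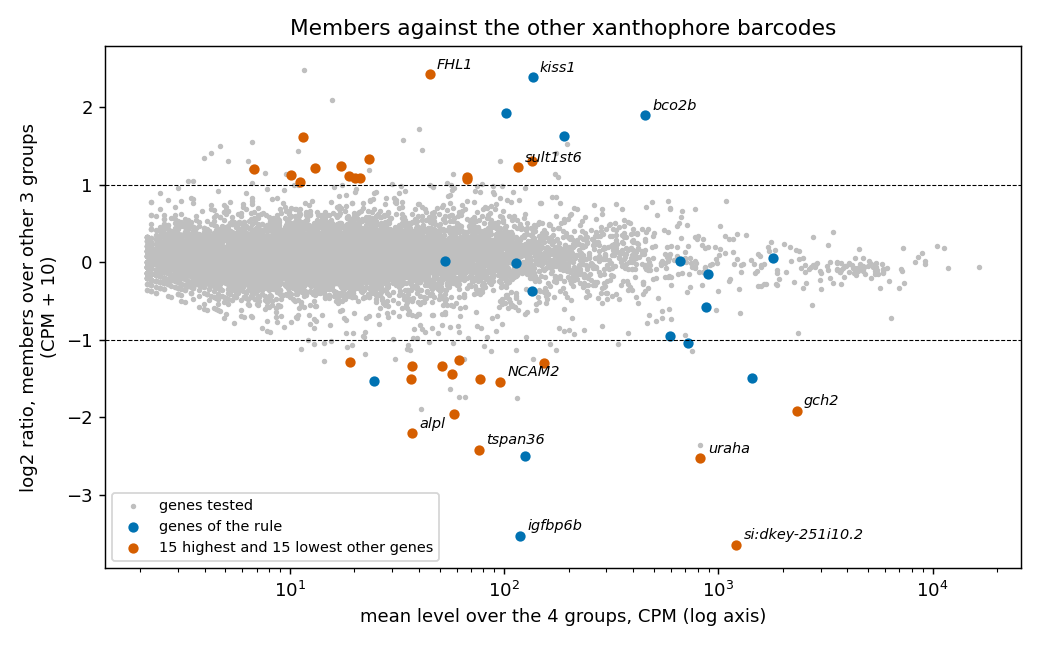
Log2 ratio of members to the other 3 groups pooled (10 CPM added) against the mean level over the 4 groups in CPM, on a log axis, for 10975 genes. Genes of the rule are blue and the 15 highest and 15 lowest other named genes are orange; dashed lines mark 2-fold. FHL1 is highest and si:dkey-251i10.2 lowest among the orange points, while gch2 has the highest mean level of them.

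A few member barcodes carried genes of other cells. Of the 248 UMIs that members held of the endothelial genes kdrl, cdh5, plvapb, cldn5b and aqp1a.1, 244 lay in 3 barcodes of 14425, 21209 and 7749 UMIs, and no barcode of the other groups held 5 or more. Of 9 endothelial and mural genes outside the rule, 3 were past 2-fold higher (kdrl, plvapb and myh11a), where 0.446% of all genes passed in each direction. All 9 had log2 ratios above 0, with a median of 0.70 beside 0.06 for all genes. The summed level of the whole list was 1824, 1278, 1445 and 2009 CPM. That sum includes the rule gene CSPG4, at 671.7, 505.4, 387.3 and 1337.5 CPM, so it does not rank the groups by endothelial transcripts. Without the 3 barcodes myh11a and plvapb stood at 0 CPM and kdrl at 0.446 CPM. TPM1, a tropomyosin gene, held 46 of its 77 UMIs in them and stood at 13.8 CPM without them. Muscle genes were also uneven, since 9 members held 3 or more UMIs of mylpfa and pvalb4, against 0, 2 and 2 barcodes of the other groups, and those 9 carried 45 of the 70 aldoab UMIs of members. FHL1 stood at 133 CPM and gch2 at 754 CPM without the 3 endothelial barcodes.

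Regulators of the pigment lineage were mostly a little higher in members, with 20 of 27 log2 ratios above 0, though the median of all genes was also above 0. The kit receptor gene kitb stood at 87.9, 29.5, 33.1 and 83.7 CPM. The SoxD gene sox6 stood at 137, 62.4, 34.9 and 166 CPM, and sox10, the general pigment cell regulator, at 1469, 1030, 1044 and 1472 CPM. In these genes the members and the nlgn3a and CSPG4 group lay together above the others. The Notch-linked repressor gene her9 stood at 256, 103, 178 and 126 CPM and was highest in members. The repressor gene id3 stood at 183, 465, 440 and 208 CPM and was the 1 of 27 genes of this list past 2-fold, on the low side. The list had 0 genes past 2-fold higher, where 0.446% of all genes passed in each direction. Its median log2 ratio was 0.30 beside 0.06 for all genes.

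Of 22 genes for peptide hormones, receptors and cAMP outside the rule, 1 was past 2-fold higher (akap12b, with 25 of 28 UMIs in the 3 endothelial barcodes) and 1 lower (adcy7), where 0.446% of all genes passed in each direction. Of these 22 ratios 15 lay above 0, with a median of 0.16 beside 0.06 for all genes. The melanocortin receptor gene mc1r stood at 282, 241, 177 and 293 CPM and the adenylate cyclase gene adcy5 at 565, 448, 315 and 580 CPM. The neurotrophin gene ntf3 stood at 55.1, 30.2, 38.9 and 119 CPM in the pool and at 217 CPM in keratinocyte barcodes. Of 23 matrix genes outside the rule, 1 was past 2-fold higher, igfbp1a, with 42 of its 45 UMIs in the 3 endothelial barcodes. The matrix genes sparc and mmp14b stood at 49.9 and 78.3 CPM in members, 11.4 to 41.8 and 35.2 to 65.1 CPM in the other groups.

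The median mitochondrial share was 3.35, 3.45, 2.75 and 3.20%. Of 72 ribosomal protein genes, 80 nuclear genes of oxidative phosphorylation, 24 immediate early and heat shock genes and 13 cell cycle genes, 0 passed 2-fold in either direction, where 0.446% of all genes did in each. Of the ribosomal genes 64 of 72 had log2 ratios under 0 (median -0.08), and of the cell cycle genes 10 of 13 had ratios above 0 (median 0.23). The median of all genes was 0.06. The summed level of the cell cycle list was 262, 142, 169 and 274 CPM, so members and the nlgn3a and CSPG4 group were the higher ones. Transcripts of the keratinocyte list were present in every group, lowest in members, with summed levels of 6578, 8205, 8551 and 8232 CPM. Keratinocyte barcodes held 59361 CPM. The source of these transcripts in the pool was not tested. The melanophore genes trpm1b, MLANA and tyr stood at 1116, 238 and 70.4 CPM in members and were also present in every other group. The whole melanophore list summed to 1938 CPM in members and to 58.2 CPM in keratinocyte barcodes, so unlike the keratinocyte list it was low there. The part of the transcripts of either list in the differences was not tested.

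Each group was also set against the members alone. Against the nlgn3a and CSPG4 group 32 genes were at least 2-fold higher (0.292% of genes) and 78 lower (0.711%), and the log2 ratios had an SD of 0.31. Against the igfbp6b and tmem163a group the counts were 185 higher (1.69%) and 101 lower (0.920%), with an SD of 0.39. Against the spra and gamt group they were 110 higher (1.00%) and 40 lower (0.364%), with an SD of 0.33. The count of higher genes was smallest against the nlgn3a and CSPG4 group and that of lower genes against the spra and gamt group. The 3 comparisons share the members, the rule used each of them, and the counts include rule genes. Outside the rule genes, 13 genes were past 2-fold higher against all 3 groups and 6 lower. The 6 were gch2, uraha, NCAM2, opn4xb, si:dkey-251i10.2 and ENSORLG00000000217. ENSORLG00000000217 was found in 2.61% of members, in 2.98, 2.40 and 2.87% of the other groups, and in 42.8% of keratinocyte barcodes. The 13 were FHL1, found in 27.6% of members, ENSORLG00000017221, found in 10.22%, and 11 genes found in at most 5% of members each. Those 11 were kdrl, cldn5b, aqp1a.1, plvapb, rbpms2a, myh11a, myl9a, TPM1, mylpfa, pvalb4 and ENSORLG00000018147. ENSORLG00000017221 was found in 10.18% of keratinocyte barcodes, close to its share in members, at 62.8 CPM against 77.4 CPM in members. Its log2 ratio against the nlgn3a and CSPG4 group was 1.00, at the limit for a call.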

How the data were processed

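Single-cell 3′ libraries of skin and scales were analysed as 1 group of 2 runs. The deposited matrices hold UMI counts per gene and barcode, made with Cell Ranger 7.1.0, per the submitters' processing notes. Genome build and annotation: not given in the sources used here. Counts were used as deposited, from 23601 features, of which 13523 carry a name. Counts of near-identical gene copies are uncertain, since reads could be split between them.

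Members and groups followed the rule given in the report, on run 1. Counts were summed per group and scaled to CPM, with exact 95% Poisson, conditional ratio and Clopper-Pearson intervals. Log2 ratios used CPM plus 10, over genes with at least 20 UMIs. Named genes were the 15 highest and 15 lowest ratios among genes with a symbol and a UMI in at least 5% of the barcodes of the higher side, the rule genes, list genes past 2-fold, and leading members of the carotenoid, pteridine, lineage and hormone lists; other genes, such as those of the endothelial and muscle barcodes, were named after their values were seen. The members and gene lists were chosen with earlier results of these data known. Keratinocyte barcodes had 0 UMIs of scarb1 and sox5 and at least 3 genes of the keratinocyte list. Doublets were not removed in the rule; Scrublet's scores (scanpy 1.11.5) put 18 members in the top 4% of run 1. Scripts were tested on simulated data. Tools were python 3.11.15, numpy 2.4.6, scipy 1.17.1 and pandas 2.3.3.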

Additional observations from a re-analysis of the deposited data

Results flagged for a closer look

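Run 2 entered no comparison, yet it held UMIs of all 4 genes of set A. There were 160 UMIs of ngfrb in 95 of 614 barcodes, and 81 of those 95 also held slc23a4, a gene of leucophores, while 6 held scarb1. Of all 614 barcodes 238 held slc23a4. The other 3 genes were sparse, with 7 UMIs of efemp2a in 6 barcodes, 6 UMIs of kiss1 in 6 barcodes and 4 UMIs of bco2b in 2 barcodes. Run 2 had no control samples, and a scarb1 UMI was found in 20 of its barcodes.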

How the results depend on the processing

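The members' share of the pool, 26.0%, was 18.5% when set A had to lead by at least 0.25 and 15.1% when 3 or 4 genes of set A had to be detected. Of the 2 counts of 49 genes, both grew with 1 CPM added in place of 10, to 311 higher and 284 lower. Against single groups they were 185 and 101 (igfbp6b and tmem163a), 110 higher (spra and gamt), and 32 and 78 (nlgn3a and CSPG4). Thinning each barcode to 2000 UMIs also grouped the barcodes anew, into 408 members, where 426 of the first members were deep enough to keep. It left 22 of the former 49 and 32 of the latter among the genes past 2-fold. The cause, thinning or regrouping, was not tested. Leaving kiss1 out of set A left 29 of the former and 43 of the latter. XDH missed 2-fold with efemp2a (-0.89) or ngfrb (-0.99) left out. The ratio of gch2 stayed between -2.27 and -1.41 and that of FHL1 between 1.76 and 2.93 (log2) over 13 settings that kept the pooled comparison. Thinning with its regrouping turned myh11a to -0.38, kdrl to -0.16, plvapb to -0.060 and akap12b to -0.0063. Leaving out the 3 endothelial barcodes, an alternative chosen after seeing the data, gave -0.16 for myh11a, -0.11 for kdrl, -0.020 for plvapb and -0.081 for igfbp1a. Members with 3 or 4 genes of set A, chosen likewise, gave -0.16 for myh11a. Against the igfbp6b and tmem163a group krtt1c19e was 1.32, with 281 CPM in the spra and gamt group. Of 624 ratios of 39 named genes over the settings, 496 were classed as unchanged, 118 as moved and 10 as changed in sign. Genes with wide counting intervals could shift far and still be classed as unchanged. The gene akap12b did so, from 1.05 to 0.082 without the 3 endothelial barcodes. No paired analysis was possible because the 2 runs carry the same labels and form no pair of groups. Depth limits statements on genes under about 10 CPM.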
